A study of Mus musculus with 21 samples.

Results

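The classical cadherins Cdh1, Cdh2 and Cdh4 (type I) and Cdh6, Cdh7, Cdh8, Cdh10, Cdh11, Cdh20 and Cdh22 (type II) were followed through directed differentiation of mouse embryonic stem cells (mESCs) into spinal motor neurons (MNs). These 10 genes, of 55400 in the count table, were taken by name from 18 classical cadherins, with earlier results of these data known. RNA-seq was available for 21 libraries, in 7 groups of 3 biological replicates, all labelled wild type and all from C57BL/6 mESCs kept on mitomycin-C-treated mouse embryonic fibroblasts. Embryoid bodies received 1 μM all-trans retinoic acid and 0.5 μM of the Sonic hedgehog agonist SAG from day 2, and 5 μM of the Notch pathway inhibitor DAPT from day 4, to direct them towards the hypaxial motor column. Untreated cells were collected at day 4 (D4, MN progenitors, before DAPT), 8 h later (D4H8, proneural MNs), at day 5 (D5, newborn MNs) and at day 6 (D6, maturing MNs). At D4H8, D5 and D6 a further group had been exposed for 1 day to GSKJ4, an inhibitor of the Kdm6 histone demethylases, whose dose for these libraries is not given in the sources used here. By the paper's methods, the medium was changed at day 5 to one with DAPT but without retinoic acid and SAG. Every group after D4 carried DAPT, so that time and DAPT cannot be told apart in any comparison with D4. In the same way, time and the withdrawal of retinoic acid and SAG cannot be told apart where D6 is compared with an earlier stage. GSKJ4 was added 1 day before collection, so the D4H8 exposure began before DAPT and those at D5 and D6 did not. Stage and DAPT during exposure therefore cannot be told apart where GSKJ4 effects are compared with that at D4H8. The cultures were whole differentiating embryoid bodies rather than sorted MNs.

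Classical cadherins are single-pass membrane proteins that hold cells together through calcium-dependent contacts between their outer domains, while their cytoplasmic tails bind catenins, which link the junction to actin. Type I members carry a conserved tryptophan in the outermost domain that docks into the partner molecule, and type II members use a pair of tryptophans, so the types do not generally pair with each other. In the embryo Cdh1 (E-cadherin) marks stem cells and epithelia and gives way to Cdh2 (N-cadherin) as the neural plate forms, and in the spinal cord combinations of type II cadherins sort postmitotic MNs into pools.

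RefSeq promoter entries (build GRCm38.p6) were used for 6 of the 10 members. In the 250 bases before the start, the CG dinucleotide, which reads the same on both strands, occurred 30 times for Cdh22, 20 times for Cdh8, 10 times for Cdh20, 6 times for Cdh6 and 2 times for Cdh10, and the 3 starts of Cdh7 had 13, 17 and 3. These windows precede RefSeq starts. The Cdh10 window and all 3 Cdh7 windows lay inside the annotated gene, as did part of the Cdh22 window. Their counts therefore include bases that are not upstream of the gene. The median over 32851 promoters was 6, and 92.1% of them held at least 1. As many CG or more as for Cdh22 were present in 5.94% of all promoters, as for Cdh8 in 17.9% and as for Cdh6 in 50.4%. Of these, the sequences of Cdh22, the member with the largest fold rise from D4 to D6, of Cdh6, the most abundant type II member, and of Cdh8, which had many CG but stayed close to the detection limit, are printed 5′ to 3′ with each CG in capitals. All 3 lie on the minus strand and end at the first base upstream of the annotated gene, which shortens the Cdh22 window to 134 bases with 19 CG (chr2:165234854-165234987, against chr15:13173676-13173925 for Cdh6 and chr8:99416472-99416721 for Cdh8).
Cdh22: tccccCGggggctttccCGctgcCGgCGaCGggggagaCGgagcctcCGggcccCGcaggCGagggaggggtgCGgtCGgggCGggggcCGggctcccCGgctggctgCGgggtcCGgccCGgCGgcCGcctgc
Cdh6: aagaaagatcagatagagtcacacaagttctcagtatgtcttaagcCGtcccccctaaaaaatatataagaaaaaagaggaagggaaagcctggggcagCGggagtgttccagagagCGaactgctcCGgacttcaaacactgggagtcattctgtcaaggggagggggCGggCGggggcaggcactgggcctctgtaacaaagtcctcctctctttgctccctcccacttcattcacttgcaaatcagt
Cdh8: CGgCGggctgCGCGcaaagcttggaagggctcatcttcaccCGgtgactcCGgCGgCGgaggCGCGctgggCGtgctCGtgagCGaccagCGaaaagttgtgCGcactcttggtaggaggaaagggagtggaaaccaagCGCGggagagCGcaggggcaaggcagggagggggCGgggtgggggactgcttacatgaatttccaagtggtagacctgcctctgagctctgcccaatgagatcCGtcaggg

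Libraries held 14982115 to 34383842 counted reads (median 16238435). One library, D5 GSKJ4 replicate 2, stood apart, with 39381 genes at 0 against 29339 to 32805 in the other 20, and with 840 genes at 1 to 10 counts against 6721 to 8776. Cdh7, Cdh8, Cdh10 and Cdh20 were all at 0 in it. The log2 fold changes of Cdh7, Cdh10 and Cdh20 for GSKJ4 at D5 are therefore given with and without it, and Cdh8 was not tested there. The MN label was checked on 9 postmitotic MN genes, all of which rose from D4 to D6 (median log2 fold change 6.62), as 32.9% of all genes did. Their summed FPKM (fragments scaled by exonic length and by sequencing depth) was 34.2 to 71.8 at D4 and 1700 to 1910 at D6. Other cell types were also represented. The summed FPKM of 6 pluripotency genes at D6 was 12.2, 100 and 90 in the 3 libraries, that of 10 fibroblast genes 14.2 to 31.7, and that of 4 endothelial genes 1.38 to 2.29. Fewer cells of a type and less RNA per cell cannot be told apart in these bulk libraries.

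At D4, Cdh1 dominated. Its mean FPKM was 62.8, against 11.9 for Cdh2, 5.84 for Cdh6, 0.81 for Cdh4 and 0.72 for Cdh11, and the libraries of Cdh1, Cdh2 and Cdh6 did not overlap with those of the next gene in that order. Cdh4 and Cdh11 overlapped. Cdh10 and Cdh22 averaged 0.327 and 0.263 FPKM, and Cdh20, Cdh7 and Cdh8 averaged 0.0833, 0.05 and 0.04. At D6 the order was Cdh2 (32.3), Cdh6 (27.7), Cdh1 (16.5), Cdh11 (9.83), Cdh22 (9.29) and Cdh4 (4.69). At D5 the libraries of Cdh1, Cdh2 and Cdh6 had overlapped. At D6 Cdh2 lay above Cdh6 in all libraries, while Cdh6 and Cdh1, Cdh1 and Cdh11, and Cdh11 and Cdh22 overlapped.

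**Figure D1:**
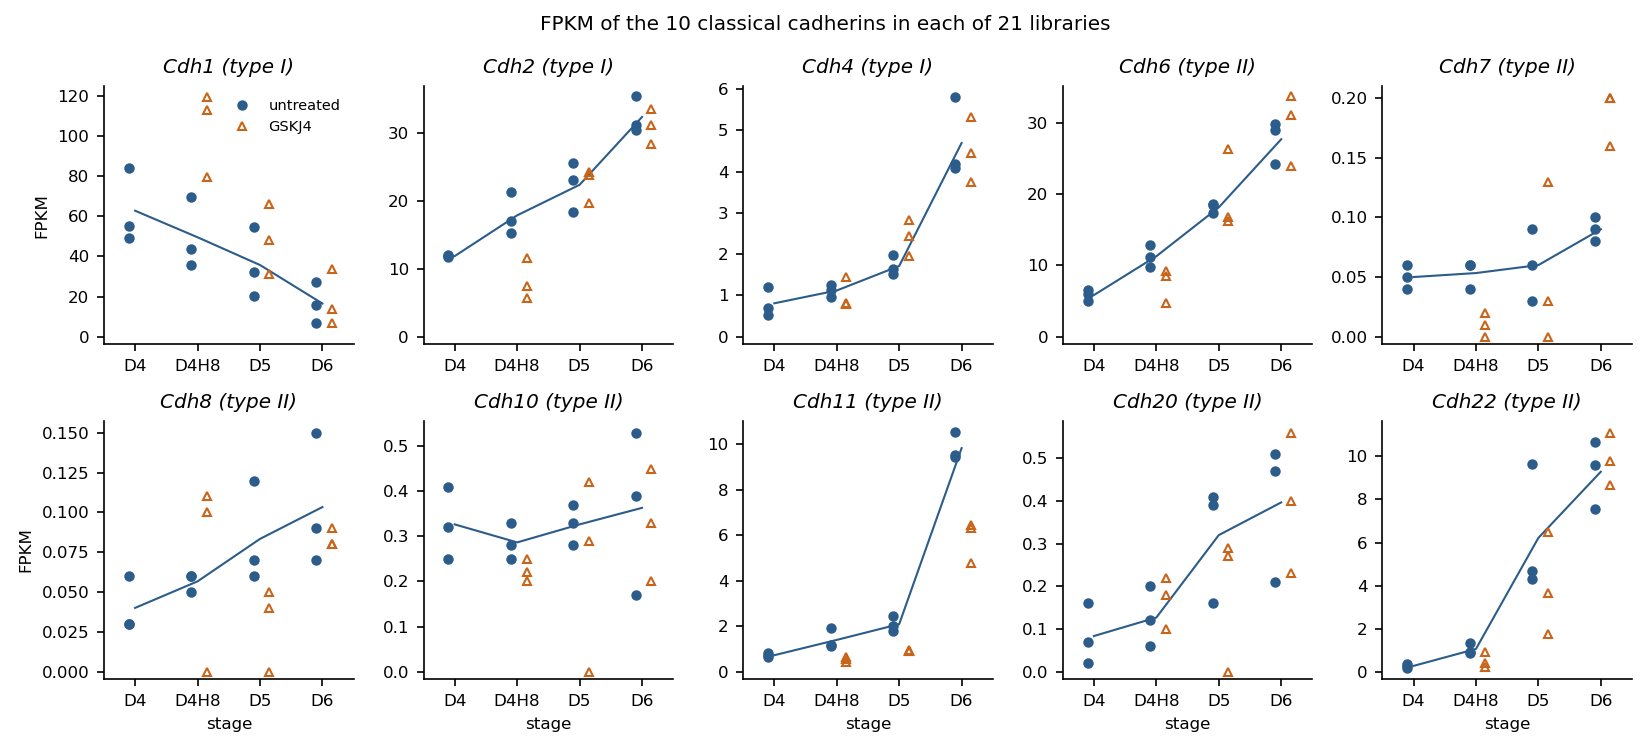
FPKM (y axis, linear, own scale per panel) of the 10 cadherins by stage (x axis). Filled circles are the 3 untreated libraries of a stage, open triangles the 3 GSKJ4 libraries, and the line joins the untreated means. Cdh1 goes from a mean of 62.8 at D4 to 16.5 at D6, while Cdh2, Cdh4, Cdh6, Cdh11 and Cdh22 go up, and GSKJ4 libraries of Cdh11 lie below the untreated ones at D4H8, D5 and D6.

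Among the type I members, Cdh1 (ENSMUSG00000000303, chr8:106603351-106670246, plus strand, GRCm38) had FPKM of 55.11, 49.27 and 83.96 at D4 and of 35.73, 43.56 and 69.37 at D4H8. At D5 the libraries gave 20.23, 32.37 and 54.61, and at D6 they gave 6.83, 15.71 and 27.08. Every D6 library was lower than any D4 library, but neighbouring stages overlapped, and replicate 3 was the highest at each stage. From D4 to D6 Cdh1 fell 3.66-fold (log2 fold change -1.87, SE 0.422, adjusted p = 0.00147 by edgeR's quasi-likelihood test, leave-one-out range -2.39 to -1.51). None of the 3 single steps passed the test without a replicate block. Replicate numbers paired the libraries between D4H8 and D5 and between D5 and D6, and with the number as a block the step from D5 to D6 passed (adjusted p = 0.00287, range over all alternatives 9.92e-10 to 0.293).

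Cdh2 (ENSMUSG00000024304, chr18:16588877-16809246, minus strand) had FPKM of 12, 11.91 and 11.69 at D4, 21.34, 17.05 and 15.2 at D4H8, 18.32, 25.62 and 23.13 at D5, and 35.41, 30.47 and 31.13 at D6. Every later library lay above every D4 library. Cdh2 rose 2.85-fold from D4 to D6 (log2 fold change 1.51, SE 0.162, adjusted p = 2.09e-06 by edgeR). Of the single steps only the last passed (D5 to D6 log2 fold change 0.65, SE 0.159, adjusted p = 0.00615), while the first step was 0.54 with an adjusted p of 0.0817, although its groups did not overlap. That step was called by 3 of 19 alternatives, which were DESeq2 (adjusted p = 0.0332), no filter (0.00946) and the fit without D4H8 replicate 3 (0.0446), and the highest adjusted p was 0.42. The ratio of Cdh1 to Cdh2 FPKM was 4.59, 4.14 and 7.18 in the D4 libraries and 0.193, 0.516 and 0.87 in the D6 libraries, so the more abundant of the pair had changed in all 3 replicates.

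Cdh4 (R-cadherin, ENSMUSG00000000305, chr2:179442431-179899373, plus strand) is the type I member found in subsets of neurons, in retina and in muscle. Its FPKM was 0.53, 0.69 and 1.21 at D4, 1.25, 1.14 and 0.97 at D4H8, 1.98, 1.52 and 1.64 at D5, and 5.81, 4.09 and 4.18 at D6. It rose 6.19-fold from D4 to D6 (log2 fold change 2.63, SE 0.265, adjusted p = 1.15e-06 by edgeR), and of the single steps only that from D5 to D6 passed (1.57, SE 0.253, adjusted p = 0.000377).

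Of the type II members, Cdh6 (K-cadherin, ENSMUSG00000039385, chr15:13028701-13173675, minus strand), known from kidney and from subsets of neural cells, was the most abundant at every untreated stage. Its FPKM was 4.95, 6.59 and 5.97 at D4, 12.89, 11.22 and 9.73 at D4H8, 18.6, 17.28 and 18.48 at D5, and 29.85, 24.2 and 28.95 at D6. No stage overlapped with the next. Cdh6 was the only member called in all 3 steps, with log2 fold changes of 0.91, 0.68 and 0.73 (adjusted p = 0.00145, 0.00235 and 0.00136 by edgeR), and it rose 4.99-fold from D4 to D6. One fit over all 21 libraries called none of these steps (adjusted p = 0.0532, 0.0726 and 0.051) but called the whole span.

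Cdh22 (ENSMUSG00000053166, chr2:165111507-165234853, minus strand), a cadherin of the brain and pituitary, showed the largest fold rise of the 10. Its FPKM was 0.17, 0.27 and 0.35 at D4, from only 14, 17 and 21 counts, and 1.35, 0.93 and 0.87 at D4H8. The D5 libraries gave 9.63, 4.32 and 4.69, with replicate 1 far above the others, and the D6 libraries 10.69, 9.6 and 7.58. The rise from D4 to D6 was 38.1-fold (log2 fold change 5.25, SE 0.392, adjusted p = 5.95e-08 by edgeR). It was spread over the first step (2.01, adjusted p = 0.00802) and the second (2.55, adjusted p = 6.44e-05). The call for the first step was lost without D4 replicate 1 (adjusted p = 0.0582) or D4H8 replicate 1 (adjusted p = 0.0575). D5 and D6 overlapped, and that step had a log2 fold change of 0.69 (adjusted p = 0.0948 without and 0.0249 with the replicate block, range over alternatives 0.00384 to 0.328).

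Cdh11 (OB-cadherin, ENSMUSG00000031673, chr8:102632095-102785642, minus strand) is a cadherin of mesenchyme that is also expressed by neurons. Its FPKM was 0.64, 0.81 and 0.71 at D4, 1.9, 1.16 and 1.12 at D4H8, 1.8, 2.46 and 2.0 at D5, and 10.53, 9.52 and 9.45 at D6. The D6 libraries lay within a narrow band, well above any D5 library. Cdh11 rose 14.3-fold from D4 to D6 (log2 fold change 3.84, SE 0.224, adjusted p = 5.08e-09 by edgeR), of which 5.11-fold came between D5 and D6 (adjusted p = 3.3e-06). The first step was also called (0.92, adjusted p = 0.0223), but not without any 1 of the 3 D4 libraries or D4H8 replicate 1 (adjusted p = 0.0558 to 0.135). The second step did not pass without the replicate block and passed with it (0.56, adjusted p = 0.0547 and 0.0337), and 4 of 19 alternatives called it, among them the fit without D4H8 replicate 1 (range 0.00197 to 0.245). Fibroblast genes were measured beside it because feeder cells are fibroblasts. Of 10 such genes 3 rose from D4 to D6 (Dcn, Col3a1 and Pdgfra), 1 fell (Fbn1) and 6 were not called, beside 32.9% of all genes that rose and 31.0% that fell. Dcn also rose from D5 to D6 (log2 fold change 2.93, adjusted p = 9.39e-06 by edgeR). The summed FPKM of the 10 at D6 was 14.2, 23.8 and 31.7, in another order over the replicates than Cdh11. Their part in the rise of Cdh11 was not tested.

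The remaining type II members were near the limit of detection. Cdh10 had 28 to 113 counts in the untreated libraries (0.17 to 0.53 FPKM), and its stages overlapped (D6 against D4 log2 fold change 0.21, SE 0.348, adjusted p = 0.617). Cdh20 had 1 to 32 counts and went from 0.07, 0.16 and 0.02 FPKM at D4 to 0.21, 0.47 and 0.51 at D6, a rise of 5.02-fold (log2 fold change 2.33, SE 0.647, adjusted p = 0.00614 by edgeR), which was 3.15 on the log2 scale without D4 replicate 2 and 1.81 without D4 replicate 3. Cdh7 had 5 to 19 counts, and D6 against D4 was 0.93 (SE 0.438, adjusted p = 0.0783). Cdh8 had 4 to 19 counts. At D4 it had 6, 4 and 7, all under the minimum count of 10, so it passed the filter through later libraries. It was called at 1.42 (SE 0.509, adjusted p = 0.0249 by edgeR), but 6 of 18 alternatives did not call it. These were DESeq2 (adjusted p = 0.0596), no filter (0.106) and one fit over all 21 libraries (0.184). The others were the edgeR fits without D4 replicate 1 (0.0816), D4 replicate 2 (0.0859) or D6 replicate 1 (0.155). These 4 genes together make up the grey top of the bars that show the make-up of the family.

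**Figure D2:**
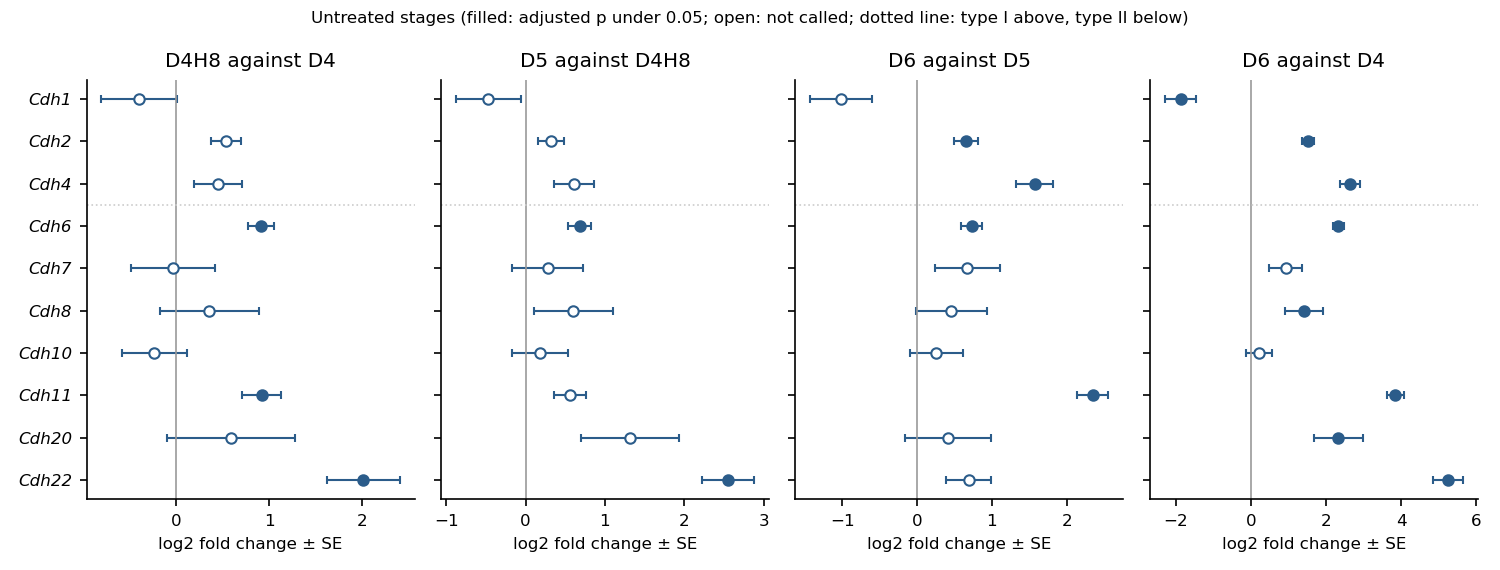
Log2 fold change (x axis) of each cadherin (rows) in 4 comparisons of untreated stages, with bars of 1 SE from edgeR. Filled circles had an adjusted p under 0.05. From D4 to D6, Cdh1 lies at -1.87 and 7 members lie to the right of 0 with filled circles, Cdh22 farthest at 5.25.

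Counted over the 10 chosen members, 3 rose from D4 to D4H8 and none fell (Cdh6, Cdh11 and Cdh22, all type II), where 4.38% of 17519 genes tested were called and 4.06% rose. From D4H8 to D5, 2 rose (Cdh6 and Cdh22) and none fell, against 27.7% of all genes called and 17.2% that rose. With the replicate block there were 3, against 30.9% of all genes called. From D5 to D6, 4 rose (Cdh2, Cdh4, Cdh6 and Cdh11) and none fell, against 34.3% called and 19.2% that rose, and with the block 5 rose and 1 fell, against 38.0% called. From D4 to D6, 7 rose, 1 fell and 2 were not called, while 63.9% of all genes were called, 32.9% higher and 31.0% lower. By type, 2 of 3 type I members rose and 1 fell, and 5 of 7 type II members rose. Cdh8 is counted among these, although its call depended on the processing, and DESeq2 called 6 members higher in place of 7. Median log2 fold changes were 1.51 for type I, 2.32 for type II and -0.04 for all genes tested.

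As a share of the summed FPKM of all 10, type I members took 91.6, 88.1 and 92.9% in the D4 libraries, 77.7, 81.8 and 87.5% at D4H8, 57.0, 70.4 and 75.3% at D5, and 48.2, 53.1 and 56.9% at D6. The D4 libraries lay above all others and the D6 libraries below all D4H8 libraries, while D5 replicate 1 was close to D6. The mean share was 90.9% ± 2.46 at D4 and 52.7% ± 4.4 at D6 (SD, n = 3). Over the same span the summed FPKM of the 10 members was 82.8 ± 18.7 and 101 ± 7.59 (SD, n = 3), with overlapping libraries. That of the 7 type II members alone was 7.32 ± 1.05 and 47.7 ± 3.7, without overlap. These sums leave out Cdh24, a type II cadherin that is not among the 10 and averaged 13.7 FPKM at D4 and 12.2 at D6. Without Cdh2, the type I share at D6 was 30.1%, since Cdh2 alone held 32.0% ± 3.55 of the sum of the 10 and Cdh1 16.1% ± 8.95.

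**Figure D3:**
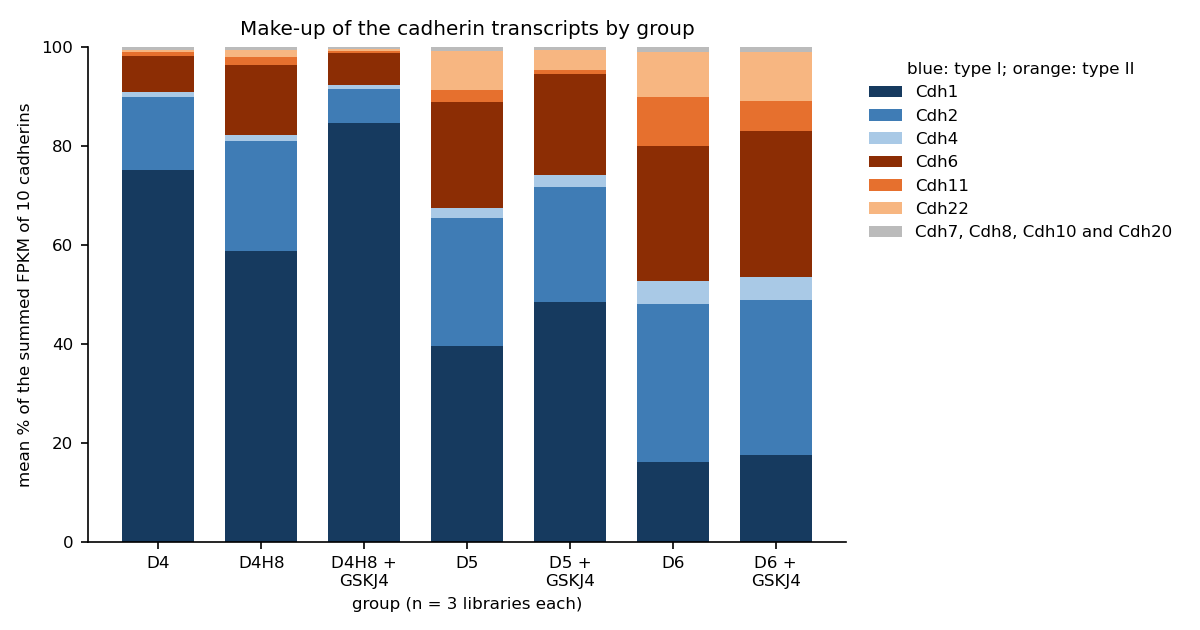
Mean share in percent (y axis) that each cadherin took of the summed FPKM of the 10, for each of the 7 groups (x axis, n = 3 libraries). Blues are type I and oranges type II, and grey is Cdh7, Cdh8, Cdh10 and Cdh20 together. Cdh1 shrinks from 75.1% at D4 to 16.1% at D6, and at D4H8 it is 58.7% without and 84.7% with GSKJ4.

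From D4 to D6, Cdh1 fell together with most of a set of other epithelial genes. Of 8 such genes (Epcam, Esrp1, Cldn4, Cldn6, Cldn7, Ocln, Krt8 and Krt18), 7 fell from D4 to D6 and Krt8 was not called, beside 31.0% of all genes that fell (median log2 fold change -1.62, against -0.04 for all genes). Their summed FPKM was 263 to 291 at D4 and 47.0, 96.6 and 157 at D6, and the D6 libraries stood in the same order as for Cdh1. The order was also shared at D4 and D5 but not at D4H8, with sums of 291, 288 and 273 against 35.73, 43.56 and 69.37 for Cdh1. From D4 to D4H8 the mean sum was 281 and 284, while mean Cdh1 was 62.8 and 49.6. Pluripotency genes at D6 were also lowest in replicate 1 (12.2 against 100 and 90). Their part in the spread of Cdh1 was not tested. Cdh3, which lies on the same strand and ends 46054 bases before the start of Cdh1, had 4.64 FPKM at D4 and 2.31 at D6, and its log2 fold change of -0.96 did not pass (SE 0.414, adjusted p = 0.0564).

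**Figure D4:**
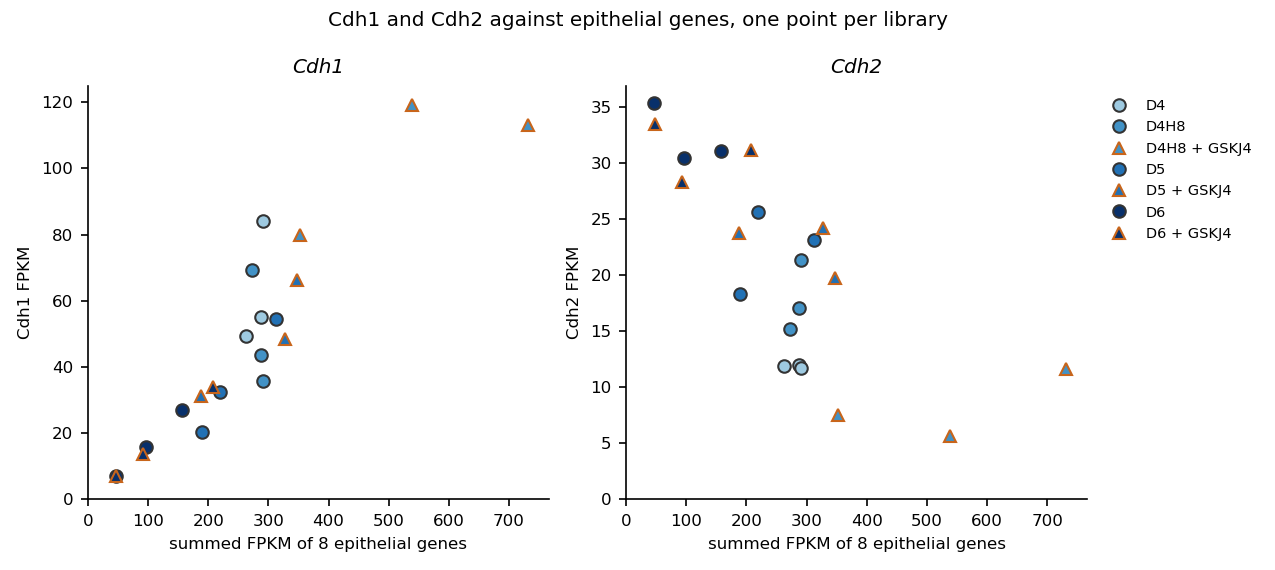
FPKM of Cdh1 (left, y axis) and Cdh2 (right, y axis) against the summed FPKM of 8 epithelial genes (x axis), 1 point per library. Circles are untreated and triangles GSKJ4 libraries, with darker blue for later stages. D6 libraries lie at the lower left for Cdh1 and the upper left for Cdh2, and the GSKJ4 libraries of D4H8 lie at the right, with the highest Cdh1 of all libraries in replicates 1 and 3 (113.0 and 119.3) and the lowest Cdh2.

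The GSKJ4 groups asked whether Kdm6 inhibition changed these levels at each stage. At D4H8, Cdh1 had 113.0, 79.75 and 119.3 FPKM in treated against 35.73, 43.56 and 69.37 in untreated libraries. Cdh2 went the other way, with 11.63, 7.5 and 5.64 against 21.34, 17.05 and 15.2. Neither pair of groups overlapped, as was the case for 33.4% of all 16269 genes tested. The log2 fold changes were 1.03 for Cdh1 (SE 0.25, adjusted p = 0.0514 by edgeR) and -1.15 for Cdh2 (SE 0.277, adjusted p = 0.051), both just short of the threshold. DESeq2 called both (adjusted p = 0.00348 and 0.00263, ranges over alternatives 0.000209 to 0.24 and 1.3e-05 to 0.233). The Cdh1 to Cdh2 ratio was 9.72, 10.6 and 21.2 in treated and 1.67, 2.55 and 4.56 in untreated libraries. The treated libraries of the type I share, at 92.5, 89.3 and 95.3%, lay above the untreated ones.

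At the same stage Cdh11 had 0.4, 0.56 and 0.66 FPKM in treated against 1.9, 1.16 and 1.12 in untreated libraries, without overlap. It was the single member called, at the very edge of the threshold (log2 fold change -1.41, SE 0.333, adjusted p = 0.0499951 by edgeR), where 3.96% of all genes were called. The call was lost without any 1 of the 3 untreated libraries or treated replicate 1 or 3 (adjusted p = 0.0741 to 0.233). By DESeq2, 3 of the 7 members with an adjusted p were called (Cdh1 higher, Cdh2 and Cdh11 lower), against 12.2% of all genes. Cdh6, at 8.53, 9.19 and 4.67 against 12.89, 11.22 and 9.73 FPKM, did not overlap in FPKM but did in counts scaled by TMM, and had a log2 fold change of -0.62 with an adjusted p of 0.212. Cdh22, at 0.93, 0.38 and 0.22 against 1.35, 0.93 and 0.87 FPKM, had -1.09 with an adjusted p of 0.22, and -1.81 without treated replicate 1 (leave-one-out range -1.81 to -0.72). Cdh4 (-0.18), Cdh10 (-0.38) and Cdh20 (0.34) were not called. Cdh7 had 0, 1 and 3 counts in the treated libraries and Cdh8 had 0, 15 and 12, and neither passed the filter on low counts.

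Cell type markers also moved at D4H8. Of the 8 epithelial genes, Ocln was called higher (log2 fold change 1.1, adjusted p = 0.0283) and 6 of 8 lay above all untreated libraries, as 16.7% of all genes did, with summed FPKM of 732, 352 and 538 against 291, 288 and 273. Of 8 neural progenitor genes 4 fell (Olig2, Nkx6-1, Hes5 and Fabp7), and of the 8 postmitotic MN genes tested 3 fell (Isl1, Lhx3 and Chat), where 1.85% of all genes tested fell. Their part in the values of Cdh1 and Cdh2 was not tested.

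**Figure D5:**
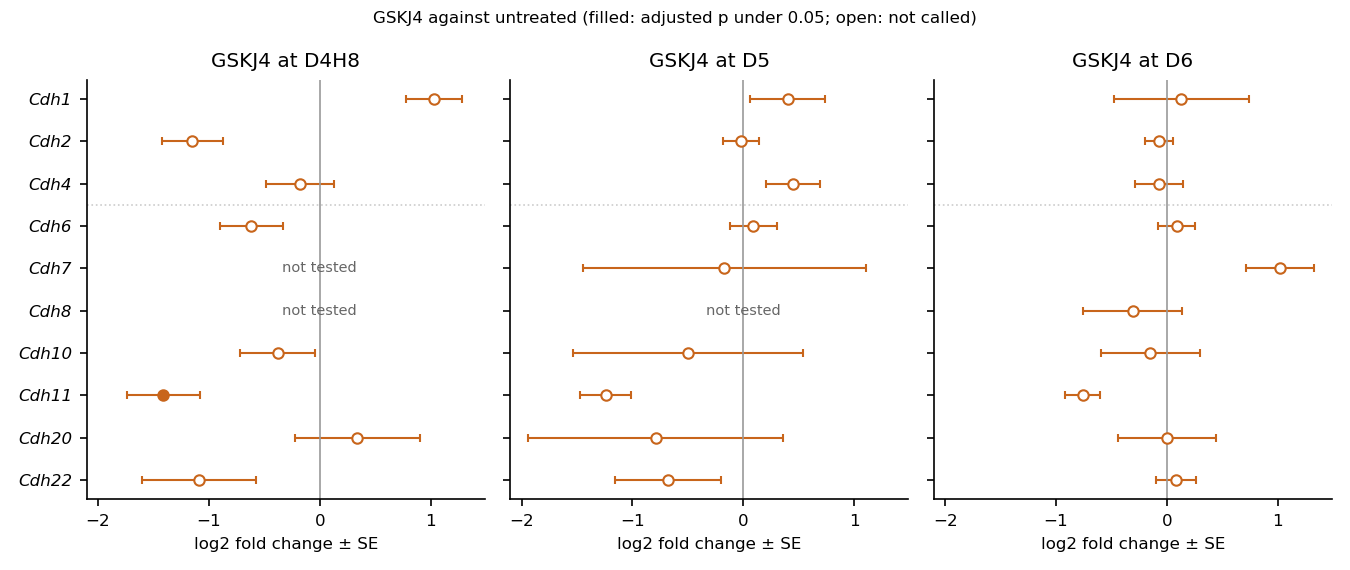
Log2 fold change of GSKJ4 against untreated libraries (x axis, common scale) for each cadherin (rows) at D4H8, D5 and D6, with bars of 1 SE from edgeR. The filled circle had an adjusted p under 0.05, and the dotted line parts type I (above) from type II. Cdh11 lies at -1.41, -1.24 and -0.76, and Cdh1 and Cdh2 lie apart from 0 at D4H8 and close to it at D6.

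At D5 edgeR called none of the 9 members tested, and 0.00613% of all genes. At an unadjusted p under 0.05 there was 1 (Cdh11, lower), where 2.39% of all genes were lower, and DESeq2 called the same gene and 0.44% of all genes. Cdh11 had 0.94, 0.89 and 0.9 FPKM in treated against 1.8, 2.46 and 2.0 in untreated libraries (log2 fold change -1.24, SE 0.229, adjusted p = 0.276 by edgeR and 0.00397 by DESeq2, range over alternatives 0.00397 to 0.999). Cdh1 and Cdh2 overlapped, with log2 fold changes of 0.4 (SE 0.337) and -0.02 (SE 0.164). Cdh22 had 6.48, 1.75 and 3.65 against 9.63, 4.32 and 4.69 FPKM, also with overlap. The values of the low members rested on the library that stood apart. Cdh10 had a log2 fold change of -0.5 with it and 0.08 without it, Cdh7 had -0.17 and 0.41, and Cdh20 had -0.79 and -0.22, none of them called. Cdh8 was not tested, with 6, 0 and 6 counts in the treated libraries.

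At D6 edgeR called none of the 10, and 0.0% of all genes, and DESeq2 called none of the 10, and 0.00326% of all genes. At an unadjusted p under 0.05 there were 2, Cdh11 lower and Cdh7 higher, where 0.822% of all genes were lower and 0.54% higher. Cdh11 had 6.46, 6.34 and 4.76 FPKM in treated against 10.53, 9.52 and 9.45 in untreated libraries, without overlap (log2 fold change -0.76, SE 0.155, adjusted p = 1.0 by edgeR). Replicate numbers paired the D6 libraries (correlations of 0.663, 0.316 and 0.446), and with the replicate block Cdh11 was called (adjusted p = 2.16e-06, range over alternatives 2.16e-06 to 1.0), alone among the 10, where 1.58% of all genes were called. Fibroblast genes in the same libraries summed to 11.5, 19.0 and 28.5 FPKM in treated and 14.2, 23.8 and 31.7 in untreated libraries, each replicate lower when treated, and Col3a1 and Pdgfra were called lower with the block (adjusted p = 0.000125 and 0.0112). Their part in the Cdh11 value was not tested. Cdh7 had 32, 31 and 27 counts in treated against 16, 15 and 13 in untreated libraries (log2 fold change 1.02, SE 0.306, adjusted p = 1.0 by edgeR and 0.243 with the block). The other 8 members overlapped, with log2 fold changes from -0.31 (Cdh8) to 0.13 (Cdh1).

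Across the stages, Cdh11 was therefore lower in every treated than in every untreated library at D4H8, D5 and D6, where 16.6%, 6.61% and 2.68% of all genes were lower in the same way. At all 3 stages together, 0.0928% of the 15092 genes tested in each (14 genes) had this pattern. No other member tested in each did, and Cdh7 and Cdh8 were not tested in each. Cdh11 was singled out here after its values were seen. The change in Cdh11 was not shown to differ between stages. The log2 difference in GSKJ4 effect was 0.19 (SE 0.342, adjusted p = 0.89) for D5 against D4H8, 0.69 (SE 0.336, adjusted p = 0.38) for D6 against D4H8 and 0.5 (SE 0.331, adjusted p = 1.0) for D6 against D5, by edgeR over 18 libraries.

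No member passed the test of a difference between stages in edgeR with its filter and no replicate block, or in DESeq2, where edgeR called 0.249%, 0.735% and 0.0% of all genes in the same 3 contrasts. At an unadjusted p under 0.05 there was 1 member for D5 against D4H8 (Cdh2), 2 for D6 against D4H8 (Cdh2 and Cdh7) and 0 for D6 against D5, all with more positive values at the later stage, as 5.0% and 7.15% of all genes had in the first and second contrast. For Cdh2 the differences were 1.12 (SE 0.326, adjusted p = 0.212, range over alternatives 0.00801 to 0.61) and 1.09 (SE 0.326, adjusted p = 0.137, range 0.00712 to 0.387, and 0.0323 with the replicate block), from the log2 effect of -1.15 at D4H8 to -0.02 at D5 and -0.07 at D6. For Cdh1 they were -0.65 (SE 0.665, adjusted p = 0.786) and -0.9 (SE 0.668, adjusted p = 0.599).

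The partners of the cadherin tail changed by member from D4 to D6. Of 10 catenins and junction partners tested, 4 rose, 4 fell and 2 were not called (median log2 fold change 0.13), beside 32.9% and 31.0% of all genes, and Ctnna3 was not tested. Ctnnb1 (β-catenin), which binds the tail directly, fell modestly from 196.1, 258.4 and 266.0 FPKM to 138.9, 165.6 and 187.7 (-0.48, adjusted p = 0.00397 by edgeR), whereas its relative Jup (plakoglobin) rose from 1.79, 2.63 and 3.6 to 16.96, 14.1 and 15.3 (2.62, adjusted p = 3.93e-07). The α-catenins, which couple the complex to actin, went in opposite directions. Ctnna1, the epithelial form, fell from a mean of 65.1 to 24.7 FPKM (-1.34, adjusted p = 0.000107), and Ctnna2, the neural form, rose from 0.403 to 54.0 (7.12, adjusted p = 9.99e-10). Among the armadillo proteins of the membrane-proximal site, Ctnnd2 (3.36) and Arvcf (1.92) rose, Pkp4 (-0.96) fell and Ctnnd1 (0.04) was not called. The actin linker Vcl fell (-0.86), and Afdn was not called (0.22). With GSKJ4 at D4H8 their median log2 fold change was 0.12, against 0.02 for all genes tested.

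Of the transcription factors known to repress Cdh1, Snai2 (1.38, adjusted p = 0.0181), Zeb1 (1.03, adjusted p = 1.03e-05) and Twist1 (1.54, adjusted p = 0.00389) rose from D4 to D6 by edgeR, as 32.9% of all genes did. Snai1 and Zeb2 were not called and Twist2 was not tested. Zeb1 was the most abundant of the repressors that rose, with 5.31, 6.66 and 5.78 FPKM at D4 and 12.5, 10.78 and 11.28 at D6, without overlap. With GSKJ4 at D4H8 none of the 5 tested was called, and their median was 0.54, against 0.02 for all genes tested. They did not move together. Mean FPKM in treated against untreated libraries was lower for Zeb1 (6.88 against 9.62) and Zeb2 (3.38 against 5.33). It was higher for the less abundant Snai1 (1.61 against 0.887), Snai2 (0.703 against 0.387) and Twist1 (2.96 against 2.0).

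The genes whose log2 CPM followed each member most closely over the 21 libraries, among 11075 compared, were found by Pearson correlation. Those of the abundant members were Arhgef16 for Cdh1 (r = 0.98), Fmn2 for Cdh2 (0.973), Trio for Cdh4 (0.981), Pogk for Cdh6 (0.986), Pde9a for Cdh11 (0.967) and Carhsp1 for Cdh22 (0.991). Spearman's rho gave the same top gene for Cdh1 and Cdh22. Over the 12 untreated libraries only Cdh6 kept its top gene, although r for these same pairs was 0.947 to 0.994. The genes of the low members were less close, with Slc25a53 for Cdh7 (0.892), Zfp383 for Cdh8 (0.8), Pdgfra for Cdh20 (0.853) and Stbd1 for Cdh10 (0.935, but a Spearman's rho of 0.44 for the same pair). All of these low members were at 0 in D5 GSKJ4 replicate 2. In the 12 untreated libraries r for the same pairs was 0.517 for Cdh7, 0.778 for Cdh8, 0.819 for Cdh20 and 0.391 for Cdh10. Within the family, Cdh1 correlated with Cdh2 at -0.84 and with Cdh11 at -0.87, and Cdh6 with Cdh22 at 0.96. The points share stages, so these values describe the libraries and carry no p.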

How the data were processed

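Gene expression was measured by polyA RNA-seq in 21 libraries, 7 groups of 3 biological replicates. By the authors' account, Fastp was used for trimming, Hisat2 for alignment to the mm10 genome and HTSeq-count for counting per gene. The authors deposited raw counts per gene and FPKM computed from those counts and exonic lengths. The strand setting of the counting is not given in the sources used here. FPKM recomputed from the counts lay within 0.005 of the deposited values. Symbols (55140 of 55400 identifiers) and positions came from GENCODE M21 (GRCm38), and genes overlapping a member on either strand had a mean FPKM of at most 0.15. No pair of replicates agreed within sampling noise (mean chi-square per gene 6.94 to 117 over 21 pairs).

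Calls came from edgeR 4.0.16 in R 4.3.3 (quasi-likelihood test on counts, TMM scaling, filterByExpr with a minimum count of 10, Benjamini-Hochberg adjustment over all genes tested, threshold 0.05). Stage contrasts were fitted on the 12 untreated libraries, each GSKJ4 contrast on its 6 libraries and stage differences of the GSKJ4 effect on 18. Tried instead, each on its own, were DESeq2 1.42.0, scaling by RLE or by the upper quartile, dropping the filter or raising it to 10 counts per library throughout, blocking on the replicate number, a joint fit of the 21 libraries, and omission of single libraries. The alternatives for the type I share (in CPM, over 18 cadherins, without Cdh2) are given in the closing section. Correlations used log2 CPM with a prior count of 2. A gene with at most 3 counts per library was taken as at the floor. The pipeline was also run on simulated data with changes placed only in well-counted genes, so that run does not bear on the low members. Tables and figures used Python 3.11.15 with pandas 2.3.3, numpy 2.4.6, scipy 1.17.1 and matplotlib 3.10.9.

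The named genes were the 10 members, given in every comparison, the other classical cadherins, catenins and Cdh1 repressors, and for each member the most alike gene. The members and lists were chosen with earlier results of these data known. Same-numbered libraries were taken as paired where all 3 correlations of their deviations from the group means were over 0.1. This held for D4H8 with D5 (0.314, 0.147 and 0.136), D5 with D6 (0.31, 0.144 and 0.226) and GSKJ4 with untreated cells at D6 (0.663, 0.316 and 0.446). One item is not reported here.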

Additional observations from a re-analysis of the deposited data

How the results depend on the processing

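No called log2 fold change of a member changed sign under any alternative, and of the values of single members under the alternatives, 1716 kept direction and call, 36 gained a call, 20 lost one and 53 turned in sign. With upper-quartile scaling the median of all genes for D6 against D4 moved from -0.04 to -0.19, and no member turned in that comparison. For these changes the cause was not tested. From D4H8 to D5, 4 members were called with no filter and 1 with one fit over all 21 libraries, in place of 2. For GSKJ4 at D4H8, in place of 1, DESeq2 (12.2% of all genes) and no filter each called 3. There upper-quartile scaling, a minimum of 10 counts in every library and one fit over all libraries each called 2. There the replicate numbers did not pair the libraries (correlations of 0.44, 0.0731 and 0.255), and the replicate block called 4 (Cdh1, Cdh2, Cdh11 and Cdh22), against 14.0% of all genes. At D5, DESeq2 (0.44% of all genes) and no filter each called 1, and at D6 the replicate block (1.58% of all genes) called 1, in place of 0. For the differences in GSKJ4 effect, no filter called 1 (Cdh2) for D5 and for D6 against D4H8. The replicate block called 1 (Cdh2) for D6 against D4H8, where it called 2.71% of all genes. The replicate block changed no other count by over 1.5 times. For no filter, upper-quartile scaling, the raised filter and the joint fit, the share of all genes called is not given here. Moves in those counts are therefore not read as particular to the cadherins.

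Leaving out 1 library gave 1 to 4 members called for D4H8 against D4, 2 to 4 for D5 against D4H8, 4 to 6 for D6 against D5, 7 to 8 for D6 against D4, 0 to 2 for GSKJ4 at D4H8, and 0 to 1 for the GSKJ4 effect at D5 or D6 against D4H8. The share of all genes called in these fits is not given here. The type I share ran from 89.9 to 92.2% at D4, 79.8 to 84.6% at D4H8, 90.9 to 93.9% at D4H8 with GSKJ4, 63.7 to 72.9% at D5, 71.3 to 79.9% at D5 with GSKJ4, 50.6 to 55.0% at D6 and 50.2 to 56.6% at D6 with GSKJ4. In CPM, not divided by length, it was 85.5% at D4, 75.3% at D4H8 and 87.3% at D4H8 with GSKJ4. Over all 18 classical cadherins it was 79.0, 70.1 and 82.9% in these groups and 47.1% at D6. With Cdh2 left out it was 76.8% at D4H8, 56.0% at D5, 30.1% at D6 and 31.7% at D6 with GSKJ4.

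The sign of 24 values that no alternative called turned when 1 library was left out. Their ranges were -0.14 to 0.11 (Cdh7, D4H8 against D4), -0.14 to 0.57 (Cdh7, D5 against D4H8), -0.1 to 0.58 and -0.15 to 0.53 (Cdh10, D6 against D5 and D4). For GSKJ4 at D5 they were -0.14 to 0.08 (Cdh2), -0.21 to 0.23 (Cdh6), -2.0 to 0.41 (Cdh7) and -1.14 to 0.08 (Cdh10). For GSKJ4 at D6 they were -0.65 to 0.66 (Cdh1), -0.16 to 0.04 (Cdh2), -0.24 to 0.15 (Cdh4), -0.05 to 0.23 (Cdh6), -0.56 to 0.12 (Cdh8), -0.47 to 0.21 (Cdh10) and -0.07 to 0.22 (Cdh22). For the GSKJ4 effect at D5 against D4H8 they were -0.74 to 0.47 (Cdh10), -0.18 to 0.35 (Cdh11) and -0.22 to 1.14 (Cdh22), at D6 against D4H8 -0.08 to 0.44 (Cdh4) and -0.07 to 0.6 (Cdh10), and at D6 against D5 -1.03 to 0.27 (Cdh1), -0.13 to 0.08 (Cdh2), -0.14 to 0.34 (Cdh6) and -0.22 to 0.98 (Cdh10). For Cdh6 in that last contrast, 5 other alternatives gave -0.01 in place of 0.01. Cdh20 with GSKJ4 at D6, at 0.0, ranged from -0.32 to 0.25. Counts of Cdh7, Cdh8, Cdh10 and Cdh20 limit what could be seen in them.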

Other observations

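Of the 8 other classical cadherins, Cdh24 (type II) had overlapping libraries at D4 and D6, with 13.7 ± 3.32 FPKM at D4 and 12.2 ± 0.721 at D6 (SD, n = 3, log2 fold change -0.09, adjusted p = 0.618 by edgeR). It exceeded every type II member at D4 and at D4H8, where it averaged 16.4 FPKM against 11.3 for Cdh6. Cdh12 (type II) had 0, 0 and 1 counts at D4 and 74, 125 and 85 at D6, at least 36.2-fold higher against a floor of 3 counts per library (adjusted p = 2.65e-07). Cdh5 (VE-cadherin, of endothelium) rose from 0.0867 to 1.39 FPKM (log2 fold change 4.0, adjusted p = 0.00036), while the summed FPKM of 4 endothelial genes was 2.19 at D4 and 1.98 at D6, of which Kdr and Cldn5 rose and Pecam1 and Tek were not called. Cdh15 (type I) was not called (-1.13, adjusted p = 0.194), and Cdh9, Cdh18 and Cdh19 were not tested.

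Among enzymes that process cadherins, Adam10, which sheds the outer domain of Cdh1 and Cdh2, rose from 19.77, 20.17 and 25.01 FPKM at D4 to 35.79, 36.59 and 38.45 at D6 (log2 fold change 0.84, adjusted p = 1.45e-05 by edgeR). The convertase Pcsk6 fell (-0.85, adjusted p = 0.0383), and Furin and Pcsk5 were not called.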
